A study of Mus musculus with 10 samples.

Results

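The respiratory chain of mouse embryonic stem cells was followed at the RNA level across knockouts of 3 subunits of the Polycomb complex PRC1.6. Its members were the protein coding genes of GENCODE M21 whose symbols begin with mt-, Nduf, Uqcr, Cox4i, Cox5, Cox6, Cox7, Cox8 or Atp5, together with Sdha, Sdhb, Sdhc, Sdhd and Cyc1. The rule matched 108 genes, of which 107 were among the 30460 genes listed in the deposited tables, and a second Ensembl entry of Atp5o was not analysed here. Of these, 13 are encoded by the mitochondrial genome and 94 by the nucleus. By symbol they comprised 7 mitochondrial and 38 nuclear genes of complex I, 4 nuclear genes of complex II, 1 and 9 of complex III, 3 and 18 of complex IV, 2 and 16 of complex V, 8 assembly factors of complex I named Ndufaf, and Atp5s, which was kept apart. The libraries came from C57BL/6 embryonic stem cells of genotype Mga-/- (n = 3), L3mbtl2-/- (n = 2), Pcgf6-/- (n = 2) and wild type (n = 3). The sources used here do not say how the alleles were made or whether the replicates of a group were grown as distinct clones or cultures. The p-values therefore reflect the spread among these libraries alone, part of which may be technical. The median standard deviation of log2 values was 0.338 in Mga knockout, 0.0637 in L3mbtl2 knockout, 0.0667 in Pcgf6 knockout and 0.0864 in wild type. The test pools the spread of each gene over all groups, so comparisons without Mga knockout also rest on its spread.

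The respiratory chain sits in the inner mitochondrial membrane. Complex I takes electrons from NADH and complex II takes them from succinate. Both pass them through coenzyme Q to complex III, which hands them by way of cytochrome c to oxygen at complex IV, and complex V, the ATP synthase, uses the resulting proton gradient. All complexes except complex II combine subunits from both genomes, and the mitochondrial genes are transcribed as long precursors from both strands that are then cut into single RNAs. Embryonic stem cells keep a chain of this kind although they draw much of their ATP from glycolysis.

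Depth was 19.4 to 26.7 in units of 1e6 reads recovered from the FPKM steps (FPKM scales the fragments of a gene by its length and by the depth of the library), and the members held 3.82% to 5.10% of them. Mga was at 8.03, 19.6 and 11.2 FPKM in libraries 1, 2 and 3 labelled Mga knockout, against 19.7, 18.6 and 17.1 FPKM in wild type. Mga RNA in the second of these libraries thus lay in the wild type range, which without knowledge of the allele does not settle its genotype. In that library Slc25a31 was at 89.2 FPKM against 0.472 to 0.671 FPKM in wild type, while mt-Nd1, at 4011 FPKM, lay within the wild type range. With that library left out, no member lost its call in Mga knockout against wild type and 21 of the 103 tested gained one, 13 higher and 8 lower, while the share of all genes called was 55.1%. L3mbtl2 was at 3.72 and 3.49 FPKM in L3mbtl2 knockout against 19.8 to 20.5 FPKM in wild type, and Pcgf6 at 9.56 and 9.82 FPKM in Pcgf6 knockout against 27.6 to 29.7 FPKM in wild type. All 8 pluripotency markers were detected in every group. They summed to 3333 to 3551 FPKM in Mga knockout, 3606 to 3677 in L3mbtl2 knockout, 4012 to 4136 in Pcgf6 knockout and 2356 to 2556 in wild type. The summed level of 12 macrophage markers was 8.85 to 31.8 FPKM in Mga knockout, 467 to 480 in L3mbtl2 knockout, 219 to 220 in Pcgf6 knockout and 162 to 170 in wild type, and that of 9 germ cell markers was 621 to 1538, 745 to 752, 126 to 126 and 19.4 to 20.4 FPKM in the same order. Markers of trophoblast and simple epithelium (10) summed to 112 to 219, 37.8 to 40.7, 145 to 150 and 479 to 499 FPKM, those of fibroblasts (10) to 154 to 496, 152 to 152, 99.6 to 103 and 139 to 141 FPKM, and those of primitive endoderm (9) to 32.9 to 56.1, 43.8 to 45.1, 53.6 to 54.0 and 41.6 to 43.5 FPKM. No marker of these lists was at 0 in a whole group. The part of these cells or programmes in the results was not tested, and in bulk RNA fewer cells of a type and less RNA per cell cannot be told apart.

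The values of the mitochondrial genes fell into separate ranges that followed the sequence of the genome. The 7 genes mt-Nd1, mt-Nd2, mt-Co1, mt-Nd4, mt-Nd5, mt-Nd6 and mt-Cytb had 3938 to 477346 recovered reads in every library. The 6 genes that lie side by side from mt-Co2 to mt-Nd4l (chrM:7013-10173, GRCm38) had far fewer. Reads ranged from 31 to 127 for mt-Co2, 170 to 317 for mt-Atp8, 31 to 68 for mt-Atp6, 5 to 27 for mt-Co3, 129 to 559 for mt-Nd3 and 0 to 3 for mt-Nd4l. Matching the GENCODE M21 transcripts to annotated pseudogenes placed copies of this stretch on chromosome 1, within chr1:24611535-24616197 on the minus strand. Of mt-Co2, 681 of 684 bases were found without a mismatch in Gm28661, and the corresponding numbers were 678 of 681 for mt-Atp6 in Gm10925, 783 of 784 for mt-Co3 in Gm28437 and 294 of 297 for mt-Nd4l in Gm10222. For mt-Nd3, 344 of 348 bases matched Gm28438 with a single substitution, T3C, in which positions are counted from the first base of the mitochondrial gene and the mitochondrial base comes first. For mt-Atp8 43 of 204 bases matched Gm10925, and the closest other copy, Gm28925 on the same chromosome, differed at 31 of 167 aligned bases. The closest annotated copy that covers all 1545 bases of mt-Co1, Gm13340 on chromosome 2, differed at 37 of them, while 482 of 483 aligned bases of mt-Co1 matched Gm29216 in the chromosome 1 stretch. The first 60 bases of mt-Co2 and mt-Nd3, and bases 24 to 83 of mt-Co1, are set beside their nuclear copies to show where a pair is identical and where it is not. Capitals mark bases that differ between the members of a pair.
mt-Co2: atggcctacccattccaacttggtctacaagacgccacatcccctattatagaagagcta
Gm28661: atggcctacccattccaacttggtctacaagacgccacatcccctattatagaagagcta
mt-Nd3: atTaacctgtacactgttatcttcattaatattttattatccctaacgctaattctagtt
Gm28438: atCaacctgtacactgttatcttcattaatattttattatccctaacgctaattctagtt
mt-Co1: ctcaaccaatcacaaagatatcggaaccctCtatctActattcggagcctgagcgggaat
Gm13340: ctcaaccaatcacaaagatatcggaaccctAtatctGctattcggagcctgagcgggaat
The first pair cannot be told apart by any read that lies within it, whereas the mt-Co1 pair differs at C54A and A60G. The longest stretch without a mismatch was 148 bases between mt-Co1 and Gm13340 and 479 bases between mt-Co1 and Gm29216, against 681 bases between mt-Co2 and Gm28661. Of mt-Nd4, 876 of the 1378 bases are likewise identical in Gm28439. Copies of the low genes were at 0 to 0.433 FPKM for Gm28661, 0 to 0.768 FPKM for Gm10925, 0.0532 to 0.44 FPKM for Gm28437, 0.176 to 2.19 FPKM for Gm10222 and 13.3 to 116 FPKM for Gm28438. Gm29216 was at 0.252 to 13.6 FPKM and Gm28439 at 0 to 0.885 FPKM. The sources used here do not say how reads with more than 1 position were handled before deposit, and its part in these low values was not tested. Levels of the 6 genes are therefore compared only for the same gene between libraries.

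**Figure D1:**
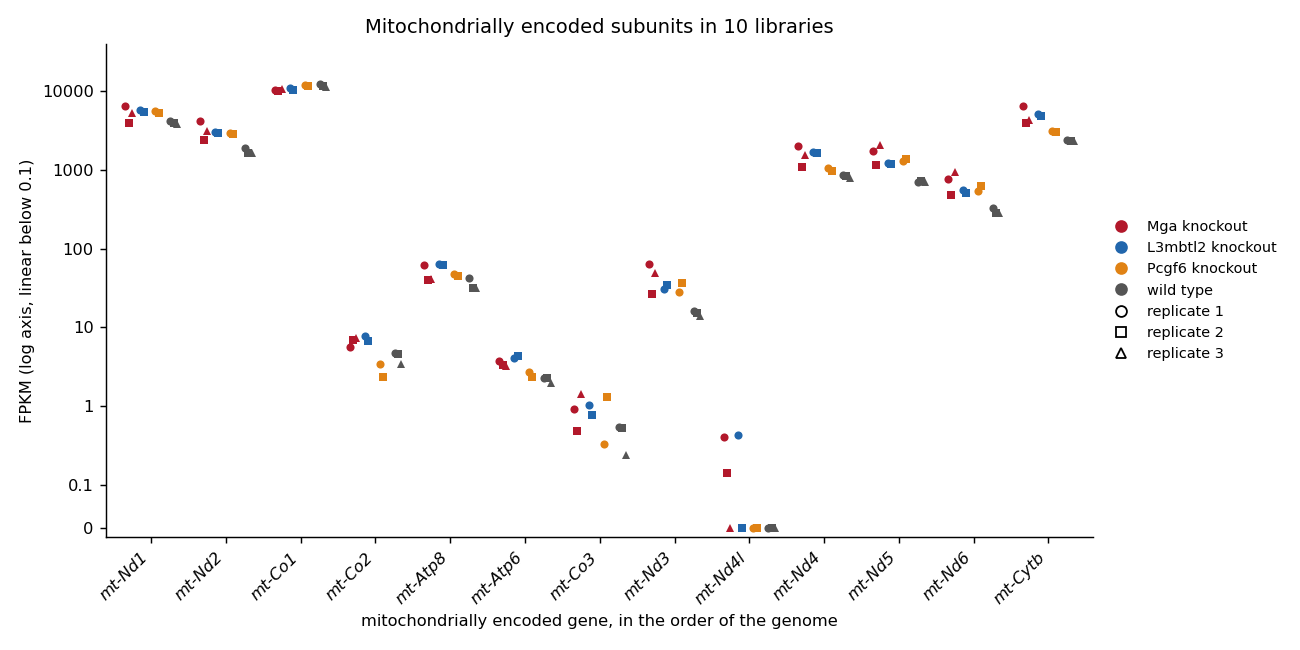
FPKM of the 13 mitochondrially encoded genes in the order of the mitochondrial genome (log axis, linear below 0.1). Each point is 1 library, coloured by group and shaped by replicate number, and the 6 genes from mt-Co2 to mt-Nd4l lie at 0 to 64.8 FPKM while the other 7 lie between 284 and 12286 FPKM.

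Most mitochondrially encoded subunits passed the test as higher in Mga and L3mbtl2 knockout. In Mga knockout against wild type 8 of the 12 tested rose and none fell, with a median log2 fold change of 0.86, and in L3mbtl2 knockout 9 rose and none fell, with a median of 0.84. In Pcgf6 knockout 2 rose and none fell, with a median of 0.43. Over all 15731 genes tested, 39.5% were called in Mga knockout (22.8% higher), 40.0% in L3mbtl2 knockout (23.4% higher) and 10.1% in Pcgf6 knockout (5.45% higher), and the medians were 0.10, 0.13 and 0.04. A call means an adjusted p under 0.05 in limma fitted to log2(FPKM + 0.1) over all 10 libraries, with Benjamini-Hochberg adjustment over all tested genes. mt-Nd4l was under the filter of 0.5 FPKM in 2 libraries and was not tested. The 3 comparisons share the wild type libraries. Without the library labelled Mga knockout replicate 2, 10 rose and none fell in Mga knockout, where 55.1% of all genes were called (32.6% higher). In L3mbtl2 knockout most of these calls were lost without either of its libraries, which leaves 1 library in the group, and calls over all genes fell too. In Pcgf6 knockout no call was made without any 1 of the wild type libraries, where 3.22% to 3.92% of all genes were called. Without Mga knockout replicates 1 and 2, 6 and 5 were made, where 22.7% and 25.2% of all genes were called. Its calls were lost or fewer without any 1 library of Pcgf6 or L3mbtl2 knockout, which leaves 1 library in that group, and calls over all genes fell too.

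Among the complex I genes, mt-Nd5, a proton-pumping subunit at the far end of the membrane arm, was at 1731, 1172 and 2064 FPKM in Mga knockout, 1244 and 1185 in L3mbtl2 knockout, 1310 and 1395 in Pcgf6 knockout, and 712, 718 and 705 in wild type. Every knockout library was above every wild type library. The log2 fold changes were 1.18 ± 0.18 in Mga knockout (SE, adjusted p = 0.00139), 0.77 ± 0.20 in L3mbtl2 knockout (adjusted p = 0.0147) and 0.93 ± 0.20 in Pcgf6 knockout (adjusted p = 0.0225). mt-Nd6, the 1 subunit gene on the other strand, followed the same order at 769, 482 and 930 FPKM in Mga knockout, 560 and 506 in L3mbtl2 knockout, 547 and 630 in Pcgf6 knockout, and 328, 284 and 288 in wild type. It rose by 1.23 ± 0.21, 0.83 ± 0.23 and 0.97 ± 0.23 on the log2 scale (adjusted p = 0.00256, 0.0219 and 0.035). With no filter its Pcgf6 call was lost (adjusted p = 0.0633). No other mitochondrial gene tested was called in all 3 knockouts. Because the library kit does not mark strand, reads from mt-Nd6 and from its antisense strand could not be told apart. The ratio of mt-Nd6 to mt-Nd5 stayed within 41.2% to 45.1% in Mga knockout, 42.7% to 45.05% in L3mbtl2 knockout, 41.8% to 45.2% in Pcgf6 knockout and 39.5% to 46.0% in wild type, so the ranges overlapped.

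mt-Nd2, a core subunit of the membrane arm, was at 4226, 2375 and 3094 FPKM in Mga knockout, 3061 and 2962 in L3mbtl2 knockout, 2988 and 2861 in Pcgf6 knockout, and 1891, 1657 and 1657 in wild type. The groups did not overlap in any of the 3 comparisons, and the log2 fold changes were 0.86 ± 0.18 (adjusted p = 0.00676), 0.80 ± 0.20 (adjusted p = 0.0146) and 0.76 ± 0.20, the last of which did not pass (adjusted p = 0.0508). mt-Nd4, another pump subunit, was at 2011, 1082 and 1554 FPKM in Mga knockout, 1717 and 1649 in L3mbtl2 knockout, 1074 and 979 in Pcgf6 knockout, and 872, 830 and 788 in wild type. It rose by 0.86 ± 0.19 in Mga knockout (adjusted p = 0.00837) and 1.02 ± 0.21 in L3mbtl2 knockout (adjusted p = 0.00614), and stood at 0.31 ± 0.21 in Pcgf6 knockout (adjusted p = 0.413). mt-Nd1, which sits next to the site where coenzyme Q is reduced, was at 6457, 4011 and 5317 FPKM in Mga knockout, 5764 and 5452 in L3mbtl2 knockout, 5652 and 5283 in Pcgf6 knockout, and 4192, 3903 and 3837 in wild type. Its Mga knockout replicate 2 lay among the wild type values, and no comparison with wild type passed (0.38, 0.50 and 0.46, with adjusted p = 0.0886, 0.0529 and 0.141). Without that library the Mga knockout value was 0.56 ± 0.09 and passed (adjusted p = 0.00172). mt-Nd3, a small core subunit within the low stretch, had 64.8, 26.5 and 48.9 FPKM in Mga knockout, 30.5 and 34.8 in L3mbtl2 knockout, 28.3 and 36.8 in Pcgf6 knockout, and 16.2, 15.2 and 13.9 in wild type. It rose in Mga knockout (1.53 ± 0.28, adjusted p = 0.00352) and in L3mbtl2 knockout (1.11 ± 0.31, adjusted p = 0.0223). Its near-identical copy Gm28438 was at 26.4, 23.0 and 13.3 FPKM in Mga knockout and 43.9 and 34.2 in L3mbtl2 knockout. The copy was at 116 and 84.4 FPKM in Pcgf6 knockout, and 53.7, 17.8 and 15.4 in wild type. Reads may be split between mt-Nd3 and this copy, so the rise of mt-Nd3 may not be one of its level, which was not tested. The L3mbtl2 calls of mt-Nd3 and mt-Nd6 were also lost without wild type replicate 2 or 3, and that of mt-Nd3 with a replicate block (adjusted p = 0.0524).

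mt-Cytb, the cytochrome b of complex III and its only mitochondrial subunit, was at 6473, 3991 and 4382 FPKM in Mga knockout, 5111 and 4856 in L3mbtl2 knockout, 3129 and 3016 in Pcgf6 knockout, and 2396, 2306 and 2307 in wild type. The libraries of Mga and L3mbtl2 knockout lay above those of Pcgf6 knockout, which lay above wild type. It rose by 1.05 ± 0.16 in Mga knockout (adjusted p = 0.00166) and 1.09 ± 0.18 in L3mbtl2 knockout (adjusted p = 0.00224), and stood at 0.40 ± 0.18 in Pcgf6 knockout (adjusted p = 0.208). The difference between Mga and Pcgf6 knockout was 0.66 ± 0.18 (adjusted p = 0.0339), and that between L3mbtl2 and Pcgf6 knockout was 0.70 ± 0.20 (adjusted p = 0.0299). Both calls were lost when any 1 wild type, L3mbtl2 knockout or Pcgf6 knockout library was left out.

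mt-Co1, the catalytic subunit of complex IV that holds the oxygen-reducing centre, had the highest FPKM of all members and showed no such difference. It was at 10328, 10184 and 10849 FPKM in Mga knockout, 10923 and 10337 in L3mbtl2 knockout, 12135 and 11547 in Pcgf6 knockout, and 12286, 11560 and 11199 in wild type. All Mga and L3mbtl2 knockout libraries lay slightly below the wild type range. None of the differences passed (-0.16, -0.14 and 0.02, with adjusted p = 0.203, 0.327 and 0.935). Among the genes of the low stretch, mt-Co2, the subunit that receives electrons from cytochrome c, was at 5.54, 6.82 and 7.24 FPKM in Mga knockout, 7.82 and 6.73 in L3mbtl2 knockout, 3.46 and 2.34 in Pcgf6 knockout, and 4.77, 4.54 and 3.46 in wild type. It passed as higher in Mga knockout (0.61 ± 0.19, adjusted p = 0.0312) and in L3mbtl2 knockout (0.77 ± 0.21, adjusted p = 0.0193), while Pcgf6 knockout stood at -0.55 ± 0.21 (adjusted p = 0.136). The Mga call was lost in 9 of 21 alternatives, with adjusted p of 0.0501 or more. These were leaving out wild type replicate 2 or 3 or Mga knockout replicate 3, no filter, median-of-ratios scaling, only the 2 groups compared, chromosome medians centred, a replicate block and limma-voom. The L3mbtl2 call was lost without wild type replicate 3 or either L3mbtl2 library, and with a replicate block (adjusted p = 0.0531). mt-Co3 was at 0.24 to 1.43 FPKM over all libraries and no comparison with wild type passed. Of the complex V genes, mt-Atp6, the proton channel subunit, had 3.73, 3.27 and 3.18 FPKM in Mga knockout, 4.08 and 4.33 in L3mbtl2 knockout, 2.72 and 2.35 in Pcgf6 knockout, and 2.27, 2.25 and 1.93 in wild type. It rose by 0.63 ± 0.13 in Mga knockout (adjusted p = 0.00528) and 0.94 ± 0.14 in L3mbtl2 knockout (adjusted p = 0.00145). mt-Atp8, a short membrane subunit whose end overlaps the start of mt-Atp6, rose in L3mbtl2 knockout (0.85 ± 0.20, adjusted p = 0.0117), a call lost without either L3mbtl2 library. It passed in Mga knockout with the library labelled Mga knockout replicate 2 left out (0.54 ± 0.19, adjusted p = 0.0467).

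Shares and ratios within a library describe the make-up of the mitochondrial RNA. mt-Co1 took 39.6%, 51.6% and 45.9% of the reads of the 13 genes in Mga knockout, 46.4% and 46.2% in L3mbtl2 knockout, 53.5% and 53.2% in Pcgf6 knockout, and 62.5%, 62.5% and 62.1% in wild type. Every knockout library lay below every wild type library. The ratio of mt-Cytb to mt-Co1 was 62.7%, 39.2% and 40.4% in Mga knockout, 46.8% and 47.0% in L3mbtl2 knockout, 25.8% and 26.1% in Pcgf6 knockout, and 19.5%, 19.9% and 20.6% in wild type. A ratio taken within a library does not move with its scaling. The ratio of mt-Nd5 to mt-Co1 was 16.8%, 11.5% and 19% in Mga knockout, 11.4% and 11.5% in L3mbtl2 knockout, 10.8% and 12.1% in Pcgf6 knockout, and 5.79%, 6.21% and 6.29% in wild type. The corresponding ratios of mt-Nd1, mt-Nd2, mt-Nd4 and mt-Nd6 were also higher in every knockout library than in every wild type library. No test was made on these ratios, since mt-Co1 was chosen as the denominator after its values were seen.

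The RNAs of the mitochondrial ribosome, which lie upstream of mt-Nd1, did not move as one. mt-Rnr1, the small subunit RNA, was at 145, 78.7 and 127 FPKM in Mga knockout, 130 and 129 in L3mbtl2 knockout, 376 and 384 in Pcgf6 knockout, and 254, 258 and 269 in wild type. mt-Rnr2, the large subunit RNA, was at 338, 192 and 255 FPKM in Mga knockout, 192 and 197 in L3mbtl2 knockout, 444 and 440 in Pcgf6 knockout, and 159, 148 and 153 in wild type. Their order was thus reversed between the knockouts and wild type. mt-Rnr1 fell, with log2 fold changes of -1.20 in Mga knockout (adjusted p = 0.0018) and -1.003 in L3mbtl2 knockout (adjusted p = 0.00651), and stood at 0.55 in Pcgf6 knockout (adjusted p = 0.142). mt-Rnr2 rose by 0.73 in Mga knockout (adjusted p = 0.01) and 1.53 in Pcgf6 knockout (adjusted p = 0.00289), and stood at 0.34 in L3mbtl2 knockout (adjusted p = 0.178). The ratio of mt-Rnr2 to mt-Rnr1 was 233%, 244% and 201% in Mga knockout, 148% and 153% in L3mbtl2 knockout, 118% and 115% in Pcgf6 knockout, and 62.7%, 57.6% and 56.9% in wild type. The sources used here do not say whether RNA was selected by its poly(A) tail. As a measure of RNA without such tails, the summed level of 46 replication-dependent histone genes was 73.0 to 224 FPKM in Mga knockout, 161 to 164 in L3mbtl2 knockout, 73.6 to 78.0 in Pcgf6 knockout and 71.4 to 81.5 in wild type. The numbers of these genes at 0 throughout a group were 2, 2, 7 and 4. Their part in the mitochondrial values was not tested.

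Nuclear encoded members had smaller median changes than mitochondrial ones. In Mga knockout 35 of the 91 tested rose and 5 fell, with a median log2 fold change of 0.21, in L3mbtl2 knockout 24 rose and 12 fell, with a median of 0.15, and in Pcgf6 knockout 14 rose and none fell, with a median of 0.22. Their shares called were 44.0%, 39.6% and 15.4% in Mga, L3mbtl2 and Pcgf6 knockout, against 39.5%, 40.0% and 10.1% of all genes. The shares called higher were 38.5%, 26.4% and 15.4%, against 22.8%, 23.4% and 5.45% of all genes. Each count of rises includes Cox8c, which passed the filter on low values only through knockout libraries. Scaling by median-of-ratios factors moved the median of all genes to 0.0043 in Mga knockout and 0.016 in L3mbtl2 knockout. Under it 23 nuclear members rose and 12 fell in Mga knockout and 16 rose and 16 fell in L3mbtl2 knockout, so the balance of directions among them rests partly on the scaling. The median of the mitochondrial members minus that of the nuclear members, which no scaling factor moves, was 0.64 in Mga knockout, 0.69 in L3mbtl2 knockout and 0.21 in Pcgf6 knockout. By library this difference was 0.99, 0.35 and 0.58 in Mga knockout, 0.72 and 0.60 in L3mbtl2 knockout, 0.24 and 0.15 in Pcgf6 knockout, and 0.16, -0.013 and -0.14 in wild type. The Pcgf6 knockout libraries thus overlapped wild type, whereas those of Mga and L3mbtl2 knockout did not. Without the library labelled Mga knockout replicate 2 the difference was 0.83, and 46 nuclear members rose and 13 fell, where 55.1% of all genes were called (32.6% higher). The nuclear count of 40 calls in Mga knockout was 25 and 23 without wild type replicates 1 and 2, where 27.8% and 26.7% of all genes were called. That of 36 in L3mbtl2 knockout fell without either of its replicates, which leaves 1 library in the group, and calls over all genes fell too. The count of 14 in Pcgf6 knockout was 2, 3 and 9 without wild type replicates 1, 2 and 3, where 3.67%, 3.22% and 3.92% of all genes were called. It was 27 and 33 without Mga knockout replicates 1 and 2, where 22.7% and 25.2% of all genes were called. The count was also lower without any 1 library of Pcgf6 or L3mbtl2 knockout, which leaves 1 library in that group.

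**Figure D2:**
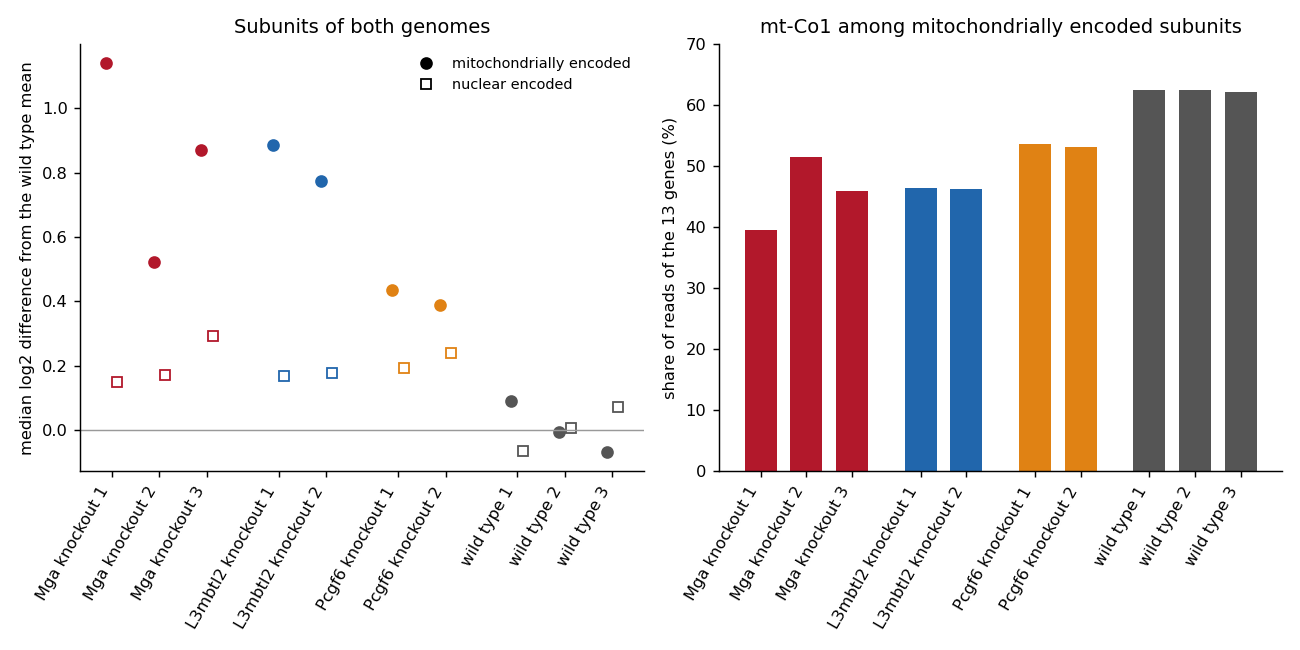
Left, median log2 difference from the wild type mean over the 12 mitochondrially (filled circles) and 91 nuclear encoded members tested (open squares), per library. Right, mt-Co1 as a percentage of the reads of the 13 mitochondrial genes, per library, with bars from 0. The mitochondrial medians lie between 0.39 and 1.14 in the 7 knockout libraries and the mt-Co1 share lies below that of all 3 wild type libraries.

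**Figure D3:**
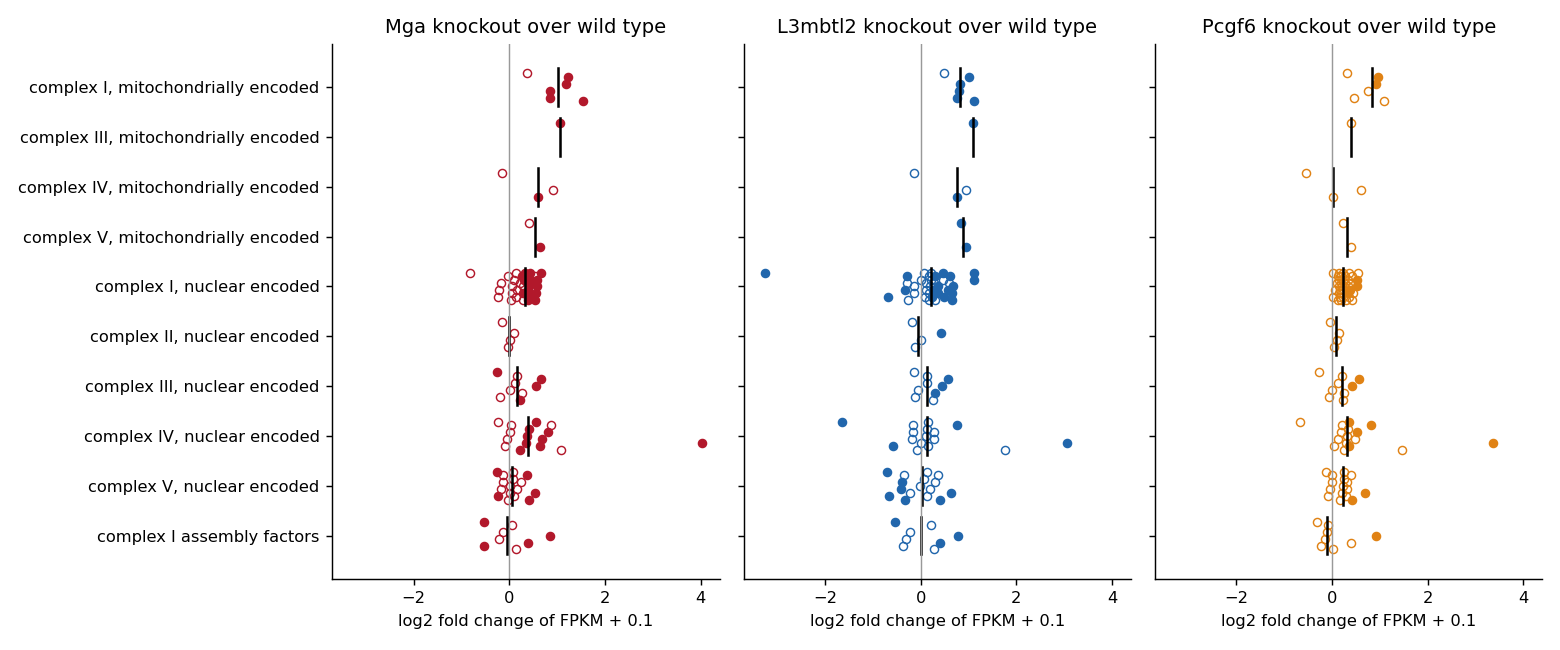
Log2 fold change over wild type of each tested member by complex and genome of origin, in 3 panels for the 3 knockouts, without Atp5s. Filled points passed the adjusted p threshold of 0.05, open points did not, and black bars are medians. Mitochondrial complex I genes lie to the right of 0 in each panel, and nuclear complex II genes lie near 0.

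Among the nuclear genes placed in complex I by symbol alone, Ndufa4 and Ndufa4l2 included, 18 of 37 tested rose and none fell in Mga knockout (median 0.34), 14 rose and 4 fell in L3mbtl2 knockout (median 0.22), and 4 rose and none fell in Pcgf6 knockout (median 0.23). The shares called were 48.6%, 48.6% and 10.8%, against 39.5%, 40.0% and 10.1% of all genes. With the library labelled Mga knockout replicate 2 left out, 25 rose and 3 fell in Mga knockout, or 75.7% called against 55.1% of all genes. The 3 were Ndufa4l2, Ndufs6 (-0.42 ± 0.08, adjusted p = 0.00356) and Ndufa7 (-0.29 ± 0.10, adjusted p = 0.0377). Ndufb11, an accessory subunit of the membrane arm, was at 39.5, 39.1 and 38.5 FPKM in Mga knockout, 30.7 and 31.6 in L3mbtl2 knockout, 33.0 and 34.3 in Pcgf6 knockout, and 24.1, 28.0 and 25.9 in wild type. No knockout library overlapped wild type, and all 3 comparisons passed (0.59 ± 0.07, 0.26 ± 0.08 and 0.37 ± 0.08, with adjusted p = 0.000507, 0.0272 and 0.0223), although the L3mbtl2 call was lost without wild type replicate 1 or 3 or either L3mbtl2 library, and under both other scalings, chromosome centring, a replicate block and limma-voom (adjusted p up to 0.353). With chromosome medians centred Ndufb11 stood at 0.37 in Mga knockout (adjusted p = 0.00722) and 0.29 in Pcgf6 knockout (adjusted p = 0.079), and limma-voom and a replicate block did not call it in Pcgf6 knockout either. Ndufa3, an accessory subunit, was at 12.1, 13 and 12.9 FPKM in Mga knockout, 15.0 and 16.7 in L3mbtl2 knockout, 13.6 and 15.1 in Pcgf6 knockout, and 9.54, 10.3 and 10.2 in wild type, and passed in all 3 (0.34, 0.66 and 0.51, with adjusted p = 0.0133, 0.00108 and 0.0125), the Mga call being lost without wild type replicate 1, under median-of-ratios scaling and in limma-voom. Ndufc1 passed in all 3 as well (0.44, 0.37 and 0.52, with adjusted p = 0.0161, 0.0455 and 0.036). Its Mga and L3mbtl2 calls were lost without wild type replicate 1 or 2, and the L3mbtl2 call also without any 1 library of L3mbtl2 or Pcgf6 knockout. No filter, median-of-ratios scaling, upper-quartile scaling and limma-voom also ended the L3mbtl2 call (adjusted p = 0.0666, 0.133, 0.0798 and 0.0747). The Pcgf6 call was lost with no filter and in limma-voom, and the Mga call with only the 2 groups compared (adjusted p = 0.0512). With chromosome medians centred no Ndufc1 call was left (0.29, 0.20 and 0.42, with adjusted p = 0.0683, 0.231 and 0.0653). Ndufa1, an accessory subunit needed for assembly of the membrane arm, had 28.8, 18.5 and 26.6 FPKM in Mga knockout, 24.7 and 24.3 in L3mbtl2 knockout, 22.5 and 21.9 in Pcgf6 knockout, and 15.0, 15.2 and 15.7 in wild type. It rose in Mga knockout (0.66 ± 0.15, adjusted p = 0.00801) and L3mbtl2 knockout (0.68 ± 0.16, adjusted p = 0.0111), the second of which was lost without either L3mbtl2 library. The fall of Ndufs6, a subunit close to the iron-sulfur clusters of the peripheral arm, in L3mbtl2 knockout was the largest among the ubiquitous complex I subunits. It was at 32.9, 47.1 and 32.0 FPKM in Mga knockout, 28.4 and 26.3 in L3mbtl2 knockout, 50.8 and 51.4 in Pcgf6 knockout, and 39.2, 44.6 and 47.3 in wild type. Its change in L3mbtl2 knockout was -0.67 ± 0.16 (adjusted p = 0.0117), and was lost without either L3mbtl2 library. Ndufb2, listed at 0.211 to 0.716 FPKM in the knockouts and 0.0665 to 0.178 FPKM in wild type, was below the filter.

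The assembly factors of complex I, which help to build the enzyme without staying in it, numbered 8 tested. In Mga knockout 2 rose and 2 fell, in L3mbtl2 knockout 2 rose and 1 fell, and in Pcgf6 knockout 1 rose and none fell, against 39.5%, 40.0% and 10.1% of all genes called. Ndufaf4 was at 8.01, 8.10 and 8.08 FPKM in Mga knockout, 6.11 and 5.68 in L3mbtl2 knockout, 8.34 and 8.53 in Pcgf6 knockout, and 4.56, 4.52 and 4.15 in wild type. The replicates of each group lay close together and none overlapped wild type. It rose by 0.86 ± 0.08 in Mga knockout (adjusted p = 0.000182), 0.41 ± 0.09 in L3mbtl2 knockout (adjusted p = 0.00881) and 0.92 ± 0.09 in Pcgf6 knockout (adjusted p = 0.00123), and the Mga and Pcgf6 calls held under every alternative tried, while the L3mbtl2 call was lost without L3mbtl2 replicate 1. Of the Pcgf6 knockout calls named in the text, only those of Ndufaf4, mt-Rnr2 and Slc25a31 held without either Pcgf6 library. Ndufaf7, a methyltransferase that acts in complex I assembly, was at 9.31, 9.76 and 9.87 FPKM in Mga knockout, 9.09 and 9.95 in L3mbtl2 knockout, 14.2 and 14.1 in Pcgf6 knockout, and 13.3, 14.3 and 14.2 in wild type. It fell by 0.53 in Mga knockout (adjusted p = 0.00112) and by 0.54 in L3mbtl2 knockout (adjusted p = 0.00152), and Pcgf6 knockout lay within the wild type range. Ndufaf2 rose in L3mbtl2 knockout (0.78 ± 0.16, adjusted p = 0.00534), which was lost without its replicate 1, and Ndufaf3 fell in Mga knockout (-0.53 ± 0.16, adjusted p = 0.0294), which was lost when any of wild type replicates 2 and 3 or Mga knockout replicates 1 and 3 was left out. The Ndufaf3 call was also lost with only the 2 groups compared (adjusted p = 0.0829).

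Complex II, the succinate dehydrogenase that also serves the citric acid cycle and has no mitochondrial subunit, has 4 genes. In limma none of them passed in Mga or Pcgf6 knockout, where 1 and 0 had an unadjusted p under 0.05, and limma-voom on recovered reads called none either. Over all genes 39.5%, 40.0% and 10.1% were called in Mga, L3mbtl2 and Pcgf6 knockout. Counts among 4 genes are too small to set complex II apart from these shares. Sdha, the flavoprotein, was at 62.0, 71.8 and 68.8 FPKM in Mga knockout, 74.5 and 75.6 in L3mbtl2 knockout, 72.0 and 73.3 in Pcgf6 knockout, and 74.2, 76.4 and 74.7 in wild type. In Mga knockout it passed as lower with the library labelled Mga knockout replicate 2 left out (-0.20 ± 0.06, adjusted p = 0.0163) and with chromosome medians centred (-0.29 ± 0.07, adjusted p = 0.0119). Sdhc, a membrane anchor on chromosome 1, was the single call and made 25.0% of the 4 genes in L3mbtl2 knockout, at 41.9 and 39.7 FPKM in L3mbtl2 knockout against 29.97, 31.4 and 29.6 FPKM in wild type (0.43 ± 0.10, adjusted p = 0.011). It was lost without either L3mbtl2 library and under median-of-ratios scaling, and stood at -0.33 with the median of its chromosome taken off (adjusted p = 0.105).

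In complex III, 3 of 9 nuclear genes rose and 1 fell in Mga knockout, 3 rose and none fell in L3mbtl2 knockout, and 2 rose and none fell in Pcgf6 knockout. The shares called were 44.4%, 33.3% and 22.2%, against 39.5%, 40.0% and 10.1% of all genes. Of these 9, 5 rose and 1 fell in Mga knockout with the library labelled Mga knockout replicate 2 left out, or 66.7% called against 55.1% of all genes. Uqcr11, a small subunit, was at 60.8, 56.5 and 68.2 FPKM in Mga knockout, 52.3 and 53.4 in L3mbtl2 knockout, 54.7 and 60.6 in Pcgf6 knockout, and 36.3, 35.2 and 46.1 in wild type. It passed in all 3 knockouts without overlap (0.66 ± 0.12, 0.44 ± 0.13 and 0.56 ± 0.13, with adjusted p = 0.00286, 0.0258 and 0.0293), and the L3mbtl2 call was lost without wild type replicate 1 or 2 or either L3mbtl2 library, and under median-of-ratios scaling. Uqcrb, a small subunit that binds ubiquinone, rose in L3mbtl2 knockout (0.56 ± 0.09, adjusted p = 0.00166) and Pcgf6 knockout (0.42 ± 0.09, adjusted p = 0.022). With a replicate block its Pcgf6 call was lost (adjusted p = 0.0517). Cyc1, the cytochrome c1 and the most abundant nuclear gene of the complex, was at 223, 226 and 293 FPKM in Mga knockout, 181 and 193 in L3mbtl2 knockout, 233 and 236 in Pcgf6 knockout, and 185, 207 and 219 in wild type, and no comparison with wild type passed. With the library labelled Mga knockout replicate 2 left out it passed in Mga knockout (0.33 ± 0.12, adjusted p = 0.0473).

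Among the nuclear genes of complex IV, Mga knockout had 9 of 16 higher and none lower than wild type (median 0.39), L3mbtl2 knockout 2 higher and 2 lower (median 0.13), and Pcgf6 knockout 5 higher and none lower (median 0.32). The shares called were 56.25%, 25.0% and 31.25%, against 39.5%, 40.0% and 10.1% of all genes. Each of these counts of rises includes Cox8c, which passed the filter on low values only through knockout libraries. Between the knockouts, 7 were higher and none lower in Mga than in L3mbtl2 knockout, 1 was higher and 1 lower in Mga than in Pcgf6 knockout, and none was higher and 6 lower in L3mbtl2 than in Pcgf6 knockout. Over all genes 22.8%, 22.6% and 30.5% were called in these comparisons. With the library labelled Mga knockout replicate 2 left out, 10 rose and 1 fell in Mga knockout, the 1 being Cox7c (-0.28 ± 0.09, adjusted p = 0.0251). This was 68.8% called against 55.1% of all genes. Cox6a1, a regulatory subunit, was at 410, 407 and 417 FPKM in Mga knockout, 251 and 248 in L3mbtl2 knockout, 344 and 357 in Pcgf6 knockout, and 251, 277 and 311 in wild type. It rose in Mga knockout (0.56 ± 0.08, adjusted p = 0.00123), stood at -0.16 ± 0.09 in L3mbtl2 knockout (adjusted p = 0.188), and was higher in Mga than in L3mbtl2 knockout by 0.72 ± 0.09 (adjusted p = 0.000986). Cox4i1, a regulatory subunit to which ATP can bind, was at 114, 107 and 118 FPKM in Mga knockout, against 72.7 and 77.3 FPKM in L3mbtl2 knockout, a difference of 0.59 ± 0.07 (adjusted p = 0.00105). Cox5b, a zinc-binding subunit on chromosome 1, was at 117, 83.0 and 92.0 FPKM in Mga knockout and 51.0, 54.2 and 59.1 FPKM in wild type, and rose by 0.82 ± 0.12 (adjusted p = 0.00138), or by 0.52 with chromosome medians centred (adjusted p = 0.00106). Cox6c, a small membrane subunit, was at 24.8, 23.7 and 27.7 FPKM in Mga knockout, 28.4 and 27.0 in L3mbtl2 knockout, 24.0 and 22.8 in Pcgf6 knockout, and 16, 16.1 and 16.8 in wild type. All 7 knockout libraries lay above wild type, and it rose in all 3 (0.63 ± 0.08, 0.76 ± 0.09 and 0.52 ± 0.09, with adjusted p = 0.000531, 0.000412 and 0.00899). Cox7a2l, which takes part in joining complexes III and IV into supercomplexes, fell in L3mbtl2 knockout (-0.57 ± 0.13, adjusted p = 0.00852), a call lost without its replicate 1.

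In complex V, 3 of 16 nuclear genes rose and 2 fell in Mga knockout, 2 rose and 5 fell in L3mbtl2 knockout, and 2 rose and none fell in Pcgf6 knockout. The shares called were 31.2%, 43.8% and 12.5%, close to those of all genes (39.5%, 40.0% and 10.1%). With the library labelled Mga knockout replicate 2 left out, 4 rose and 4 fell in Mga knockout, or 50% called against 55.1% of all genes. Atp5b, the catalytic beta subunit and the most abundant of them in wild type, passed in no comparison, with 454, 482 and 487 FPKM in Mga knockout, 460 and 471 in L3mbtl2 knockout, 522 and 532 in Pcgf6 knockout, and 454, 468 and 486 in wild type. Atp5e, the epsilon subunit of the central stalk, was at 21.6, 23.0 and 24.2 FPKM in Mga knockout, 13.3 and 12.6 in L3mbtl2 knockout, 29.1 and 28.1 in Pcgf6 knockout, and 19.6, 20.9 and 23.7 in wild type. It fell by 0.71 in L3mbtl2 knockout (adjusted p = 0.000903) and rose by 0.42 in Pcgf6 knockout (adjusted p = 0.0294), and these knockouts differed by -1.14 ± 0.11 (adjusted p = 0.000415). Atp5d, Atp5c1 and Atp5a1, the delta, gamma and alpha subunits, fell by 0.42, 0.38 and 0.33 in L3mbtl2 knockout (adjusted p = 0.00461, 0.0204 and 0.00401), and the Atp5c1 call was lost without any 1 wild type or L3mbtl2 library. Among the genes of the membrane ring, Atp5g2 fell by 0.67 in L3mbtl2 knockout (adjusted p = 0.000999) while Atp5g1 rose by 0.63 (adjusted p = 0.00634), and both encode the same mature subunit c. The ratio of Atp5g1 to Atp5g2 was 43.0%, 25.5% and 31.2% in Mga knockout, 60.2% and 59.1% in L3mbtl2 knockout, 42.5% and 40.7% in Pcgf6 knockout, and 24.6%, 24.4% and 23.7% in wild type. Atp5g1 rose in Pcgf6 knockout too (0.69 ± 0.13, adjusted p = 0.0152). Atp5g1, Atp5g2 and 15 other nuclear members have an annotated pseudogene that matches over 200 or more bases at 95% identity or more, among them Gm10175 for Atp5g2 with 645 bases at 100%. The 15 are Atp5h, Atp5k, Atp5l, Atp5o, Cox6c, Cox7a2l, Cox7b, Cox7c, Ndufa12, Ndufab1, Ndufb11, Ndufb4, Ndufs3, Ndufs5 and Uqcrb. Reads of all these members may be split or lost between copies, and their levels are uncertain.

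Over both genomes, Cox6c, Cox8c, Ndufa3, Ndufaf4, Ndufb11, Ndufc1, Uqcr11, mt-Nd5 and mt-Nd6 rose in all 3 comparisons with wild type and no member fell in all 3. Of these, Cox8c passed the filter on low values only through knockout libraries. Cox6c and Ndufb11 have pseudogene matches of 96.97% and 96.93% identity over 231 and 456 bases, so their levels are uncertain. Over all tested genes, 2.59% rose in all 3. The comparisons share their controls, so the overlap is given as a count only. Atp5d, Atp5g2 and Ndufaf7 fell in both Mga and L3mbtl2 knockout, but the Mga calls of Atp5d and Atp5g2 (-0.25 and -0.26, adjusted p = 0.0276 and 0.0366) were lost without wild type replicate 2 or 3 or either L3mbtl2 library. Both were also lost with only the 2 groups compared (adjusted p = 0.089 and 0.104), and that of Atp5g2 with no filter (adjusted p = 0.0628).

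Some subunits have isoforms restricted to certain tissues. Cox8c, the testis form of the complex IV subunit 8, was at 8.47, 1.56 and 9.44 FPKM in Mga knockout, 2.03 and 3.19 in L3mbtl2 knockout, 2.89 and 3.47 in Pcgf6 knockout, and 0.264, 0.157 and 0.237 in wild type. All 7 knockout libraries lay above wild type, and the lowest of them was the library labelled Mga knockout replicate 2. Cox8c rose by 4.02 ± 0.59 in Mga knockout (adjusted p = 0.00132), 3.07 ± 0.66 in L3mbtl2 knockout (adjusted p = 0.00711) and 3.37 ± 0.66 in Pcgf6 knockout (adjusted p = 0.0168). All wild type values lay under the filter of 0.5 FPKM, so Cox8c entered the test only through the knockout libraries in which it was high. Its calls are therefore given as description. With the library labelled Mga knockout replicate 2 left out, the Mga value was 4.84 ± 0.23 (adjusted p = 4.73e-06). The L3mbtl2 call was lost without its replicate 2, and the Pcgf6 call without any of its own or the wild type libraries, with a pseudocount of 1 (1.78, adjusted p = 0.0641) and in limma-voom (3.65, adjusted p = 0.0766). With a pseudocount of 1 the Mga and L3mbtl2 values were 2.38 and 1.55. Relative to Cox8a, its ubiquitous partner, Cox8c reached 3.20%, 0.329% and 2.61% in Mga knockout, 0.521% and 0.846% in L3mbtl2 knockout, 0.737% and 0.913% in Pcgf6 knockout, and 0.0782%, 0.0453% and 0.0628% in wild type. The other testis forms did not pass with all libraries. Cox6b2 was at 7.53, 26.3 and 10.7 FPKM in Mga knockout, 7.53 and 8.07 in L3mbtl2 knockout, 19.5 and 19.8 in Pcgf6 knockout, and 6.79, 7.43 and 6.89 in wild type (adjusted p = 0.0941, 0.802 and 0.0579). Its highest value was in the library labelled Mga knockout replicate 2, in which Cox8c was lowest among the knockouts. Cox7b2 was at 3.27, 0.305 and 3.46 FPKM in Mga knockout, 2.18 and 3.20 in L3mbtl2 knockout, 0.238 and 0.667 in Pcgf6 knockout, and 0.926, 0.345 and 1.04 in wild type. It passed in Mga knockout with the library labelled Mga knockout replicate 2 left out (2.11 ± 0.48, adjusted p = 0.00726).

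Ndufa4l2, a relative of Ndufa4 that is induced by hypoxia, was at 4.62, 23.7 and 2.38 FPKM in Mga knockout, 1.10 and 1.13 in L3mbtl2 knockout, 13.1 and 11.7 in Pcgf6 knockout, and 9.89, 11.7 and 12.8 in wild type. The L3mbtl2 knockout libraries were the lowest of all, and the Mga knockout libraries lay on both sides of wild type. It changed by -3.24 ± 0.75 in L3mbtl2 knockout (adjusted p = 0.00947), which was lost without either L3mbtl2 library (adjusted p up to 0.0625). With the library labelled Mga knockout replicate 2 left out it passed as lower in Mga knockout too (-1.75 ± 0.25, adjusted p = 0.000789). Cox4i2, the lung form of subunit 4, was at 1.43, 1.15 and 2.22 FPKM in Mga knockout, 0.427 and 0.496 in L3mbtl2 knockout, 2.02 and 2.69 in Pcgf6 knockout, and 1.86, 1.57 and 1.53 in wild type, a change of -1.64 ± 0.27 in L3mbtl2 knockout (adjusted p = 0.00223) and of -0.86 with a pseudocount of 1. Cox7a1, the heart and muscle form of subunit 7a, was at 9.75, 6.92 and 8.12 FPKM in Mga knockout, 4.74 and 4.29 in L3mbtl2 knockout, 7.45 and 10.8 in Pcgf6 knockout, and 4.37, 5.24 and 5.58 in wild type. It rose in Mga knockout (0.69 ± 0.18, adjusted p = 0.0153) and Pcgf6 knockout (0.82 ± 0.20, adjusted p = 0.0352). The Mga call was lost without wild type replicate 1 and in limma-voom. The Pcgf6 call was lost without any 1 library of wild type, L3mbtl2 or Pcgf6 knockout. It was also lost with no filter, with chromosome medians centred, with a replicate block and in limma-voom. The muscle forms Cox6a2 and Cox8b were at no more than 0.243 and 0.119 FPKM in any library and were not tested.

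**Figure D4:**
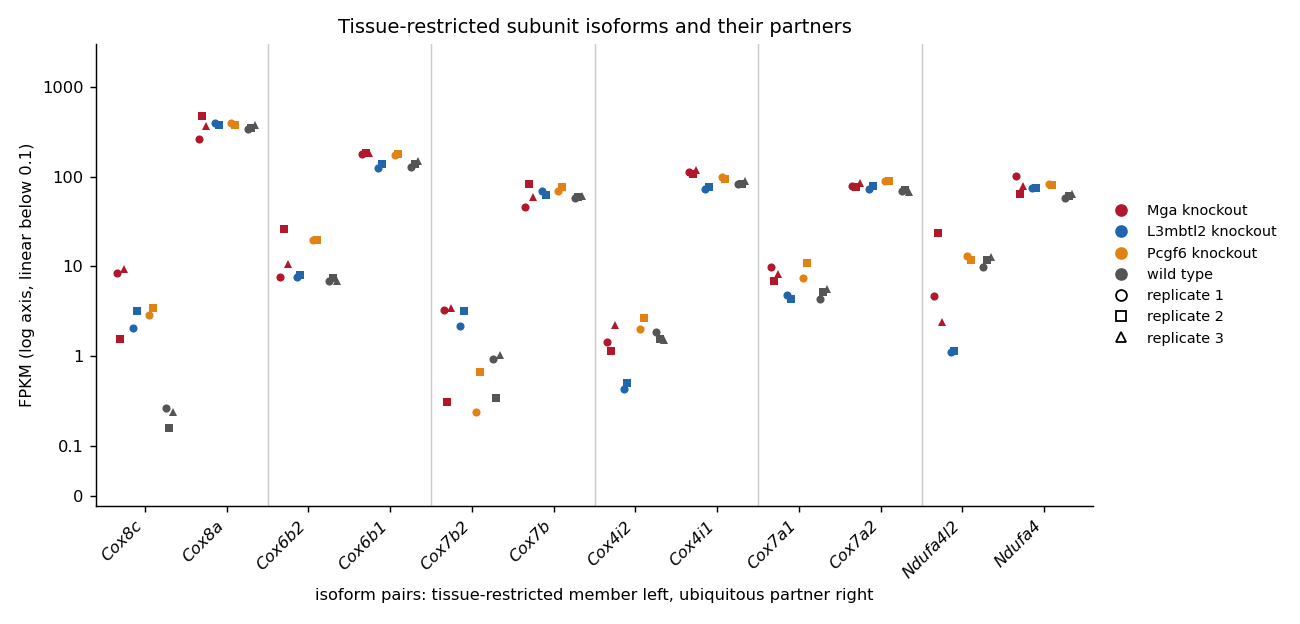
FPKM of 6 tissue-restricted subunit isoforms, each left of its ubiquitous partner, per library (log axis, linear below 0.1). Points are coloured by group and shaped by replicate number. Cox8c lies at 1.56 to 9.44 FPKM in the knockouts and at 0.157 to 0.264 FPKM in wild type, and Ndufa4l2 is lowest in L3mbtl2 knockout at 1.10 and 1.13 FPKM.

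Some nuclear members moved with their chromosome. The median log2 fold change of the 904 tested genes of chromosome 1 was 0.30 in Mga knockout, 0.75 in L3mbtl2 knockout and 0.08 in Pcgf6 knockout, and that of the 1352 tested genes of chromosome 11 was -0.23, 0.13 and -0.31. Of the 6 members on chromosome 1, 3 rose in Mga knockout, 5 in L3mbtl2 knockout and none in Pcgf6 knockout. Over all genes 22.8%, 23.4% and 5.45% were called higher, and the share among all genes of chromosome 1 was not counted. Ndufs1, the largest iron-sulfur subunit of complex I, was at 14.8, 13.4 and 14.3 FPKM in Mga knockout, 23.3 and 22.8 in L3mbtl2 knockout, 11.3 and 12.6 in Pcgf6 knockout, and 10.1, 10.7 and 10.8 in wild type, with 1.12 ± 0.09 in L3mbtl2 knockout (adjusted p = 7.03e-05). Ndufb3, an accessory subunit, was at 33.5, 29.8 and 34.7 FPKM in Mga knockout, 56.4 and 59 in L3mbtl2 knockout, 33.2 and 29.8 in Pcgf6 knockout, and 24.9, 26.7 and 28.7 in wild type, with 1.11 ± 0.10 in L3mbtl2 knockout (adjusted p = 0.000133). These were the largest rises of ubiquitous nuclear members in that knockout. With each gene centred on the median of its chromosome in each library, Ndufs1 stood at 0.36 (adjusted p = 0.0368) and Ndufb3 at 0.34 (adjusted p = 0.0596). Uqcr10, a small complex III subunit on chromosome 11, fell in Mga knockout (-0.25 ± 0.08, adjusted p = 0.0341) but stood at 0.03 after centring (adjusted p = 0.852). That call was also lost when any library other than wild type replicate 1 and Mga knockout replicate 2 was left out. No filter and only the 2 groups compared ended it too (adjusted p = 0.0582 and 0.0918). In Mga, L3mbtl2 and Pcgf6 knockout the median of chromosome 4, which holds Ndufaf4, was 0.10, 0.10 and 0.07. That of chromosome 15, with Cox6c, was 0.05, -0.02 and 0.09, and that of chromosome 10, with Uqcr11, was 0.05, -0.003 and 0.02.

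**Figure D5:**
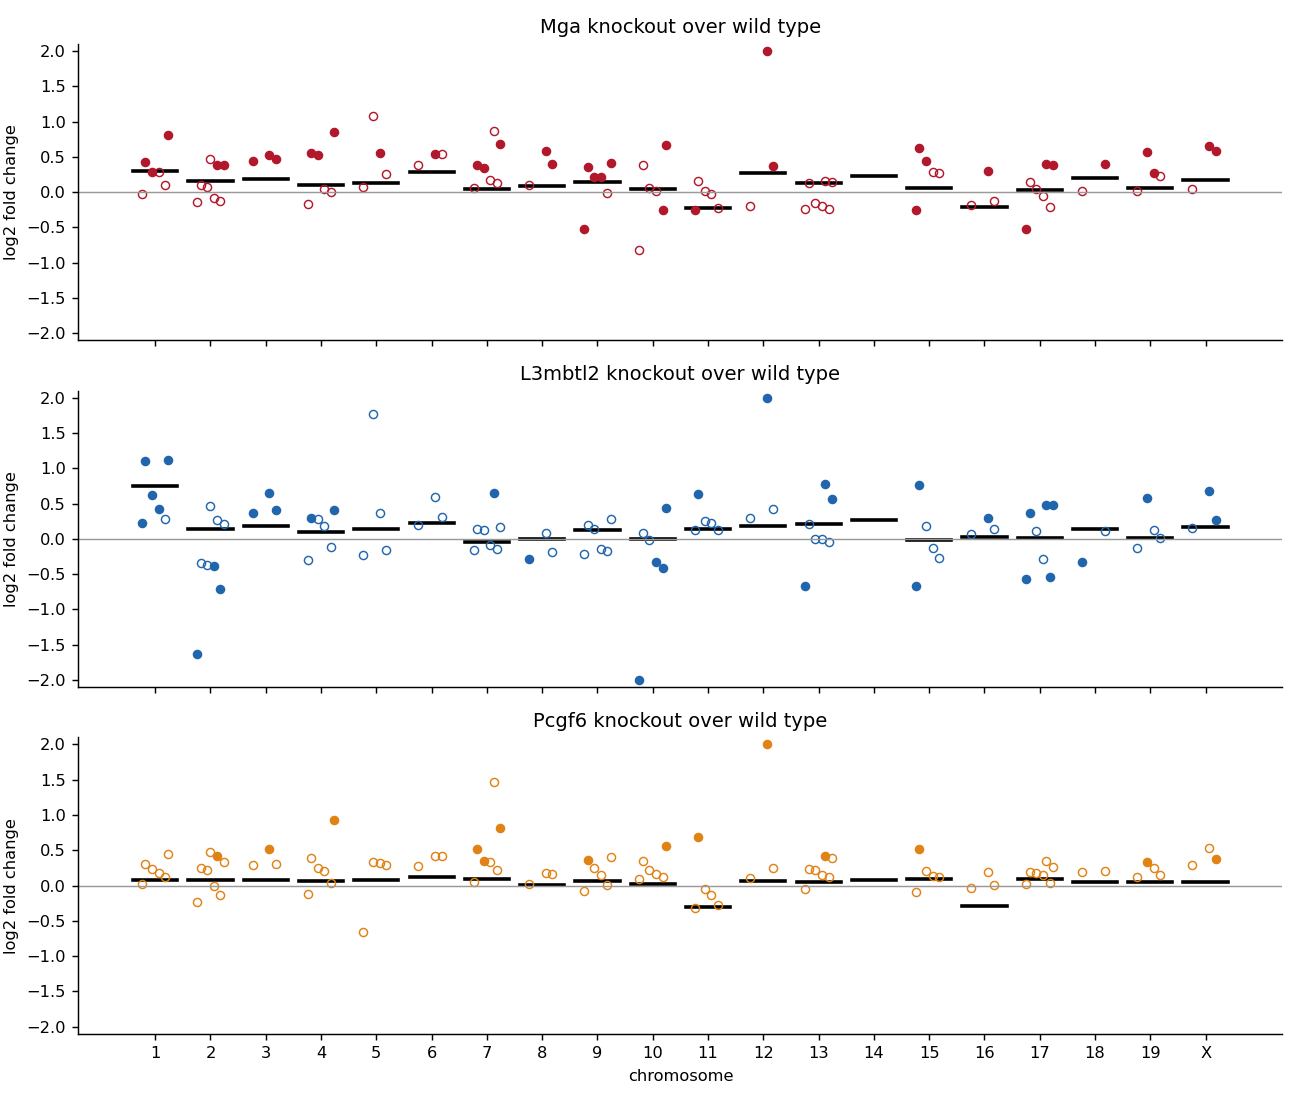
Log2 fold change over wild type of the nuclear encoded members by chromosome, in 3 panels for the 3 knockouts. Points are members (filled, adjusted p under 0.05), black bars are medians of all tested genes of the chromosome, and values beyond 2 in either direction are drawn at the edge. In L3mbtl2 knockout the bar of chromosome 1 lies at 0.75 and its 6 members all lie above 0.

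Between the knockouts, the mitochondrial members of Mga and L3mbtl2 knockout showed no call in limma, and none had an unadjusted p under 0.05 or was called by limma-voom (0 of 12 in each case, against 22.8% of all genes called). Without the library labelled Mga knockout replicate 2, 3 were higher in Mga than in L3mbtl2 knockout, and without replicate 1, 2 were lower. Over all genes 36.1% and 37.4% were called in these settings. In Mga against Pcgf6 knockout 2 mitochondrial members were higher, mt-Cytb and mt-Co2, where 22.6% of all genes were called. With the library labelled Mga knockout replicate 2 left out there were 7 (44.5% of all genes called), and 1 without any 1 wild type library (16.2% to 16.9%). Fewer were called without any 1 library of Pcgf6 or L3mbtl2 knockout, which leaves 1 library in that group, and calls over all genes fell too. In L3mbtl2 against Pcgf6 knockout 4 were higher, mt-Nd4, mt-Cytb, mt-Co2 and mt-Atp6, where 30.5% of all genes were called. Without any 1 wild type library there were 2 (23.1% to 24.4% of all genes called). Fewer were also called without any 1 library of L3mbtl2 or Pcgf6 knockout, and calls over all genes fell too. Nuclear members were called higher and lower in numbers of 18 and 11 in Mga against L3mbtl2 knockout, 5 and 6 in Mga against Pcgf6 knockout, and 5 and 21 in L3mbtl2 against Pcgf6 knockout. Of the 21, 6 belonged to complex IV and 6 to complex V. The 29 calls of Mga against L3mbtl2 knockout included 7 rises and no fall among the 16 complex IV genes. They were fewer without either L3mbtl2 library, as over all genes, and 44 with the library labelled Mga knockout replicate 2 left out (36.1% of all genes called). The 11 calls of Mga against Pcgf6 knockout were 37 without that library (44.5% of all genes called) and 5 without wild type replicate 2 (16.2%). They were also fewer without any 1 library of L3mbtl2 or Pcgf6 knockout, as over all genes. The 26 calls of L3mbtl2 against Pcgf6 knockout were fewer without any 1 library of either group, which leaves 1 library in it, and calls over all genes fell too.

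Promoters were read because several nuclear members rose together. Of the members, 76 have an entry in the RefSeq promoter table (GRCm38.p6, 250 bases before to 50 after the start), and both strands were searched for motifs of factors known to act on mitochondrial genes or tied to PRC1.6. The motif of NRF1 was found in 25.0% of the members' promoters and 5.19% of all promoters, the ETS motif CCGGAAG in 23.7% and 9.93%, and the YY1 motif AAGATGGC in 14.5% and 3.19%. The E-box CACGTG, to which MGA and MAX can bind, was found in 7.89% of the members' promoters and 8.09% of all promoters, and the E2F motif GCGGGAA in 10.5% and 5.29%. The T-box motif TCACACC was in none of the members' promoters and in 4.60% of all. Of the members that rose in all 3 knockouts and have an entry, Ndufaf4 and Uqcr11 held a match in the 150 bases upstream of the start, which are shown with the matching bases in capitals. The first is on the plus strand at chr4:24897933-24898082 and holds an NRF1 match, and the second is on the minus strand at chr10:80406822-80406971 and holds an ETS match.
Ndufaf4: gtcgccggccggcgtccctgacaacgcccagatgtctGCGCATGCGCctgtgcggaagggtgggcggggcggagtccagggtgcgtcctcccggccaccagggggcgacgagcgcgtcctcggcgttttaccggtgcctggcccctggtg
Uqcr11: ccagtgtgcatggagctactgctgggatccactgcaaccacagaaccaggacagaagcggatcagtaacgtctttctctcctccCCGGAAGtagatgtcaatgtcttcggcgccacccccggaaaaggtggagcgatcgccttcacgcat
The matches describe letters in these windows and no binding was measured. Ndufa3, Ndufb11 and Ndufc1 had none of the searched motifs in those 150 bases, and Ndufa3 and Ndufc1 held a YY1 match elsewhere in the promoter entry.

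Genes that serve the chain from outside it were described from lists, given as numbers called higher and lower in Mga, L3mbtl2 and Pcgf6 knockout in turn. Across the lists the share called was 28.2% to 62.5% in Mga knockout, 33.3% to 62.5% in L3mbtl2 knockout and 5.56% to 37.5% in Pcgf6 knockout, against 39.5%, 40.0% and 10.1% of all genes, and the highest of each belonged to the list of 8 carriers. Of 33 genes for replication, transcription and stability of mitochondrial DNA and RNA, 6 rose and 5 fell, 10 rose and 4 fell, and 2 rose and 2 fell. Tefm, the elongation factor of mitochondrial transcription, fell by 0.87 in Mga knockout (adjusted p = 0.000703), and Mterf3, a factor that represses it, rose by 0.67 in Mga knockout (adjusted p = 0.00307) and 0.85 in L3mbtl2 knockout (adjusted p = 0.00172). Of 13 nuclear regulators of mitochondrial genes, 3 rose and 3 fell, 3 rose and 4 fell, and 1 rose and 1 fell. Esrrb, an orphan receptor of the naive state that also acts on respiratory genes, rose by 0.75, 0.66 and 0.75 (adjusted p = 0.00143, 0.00423 and 0.00944). Esrra, its relative and a regulator of respiratory genes in muscle and heart, fell by 0.68 in Mga knockout (adjusted p = 0.00917) and by 1.04 in L3mbtl2 knockout (adjusted p = 0.00218). Of 39 assembly factors outside the rule, 5 rose and 6 fell, 10 rose and 3 fell, and 3 rose and 3 fell. Uqcc3, a complex III assembly factor, rose by 0.53, 1.10 and 0.67 (adjusted p = 0.0184, 0.00113 and 0.0318; lost in Mga knockout without wild type replicate 1 or Mga knockout replicate 3), and Ecsit, which takes part in complex I assembly, fell by 0.49, 0.43 and 0.45 (adjusted p = 0.00225, 0.00652 and 0.0178; lost in L3mbtl2 knockout without its replicate 2). Of 17 genes of electron carriers and coenzyme Q synthesis, 5 rose and 2 fell, 6 rose and 2 fell, and 2 rose and none fell. Cycs, the cytochrome c of somatic cells, rose by 0.94 in L3mbtl2 knockout (adjusted p = 0.00233) and 0.82 in Pcgf6 knockout (adjusted p = 0.0155), and stood at -0.26 in Mga knockout (adjusted p = 0.174). Of 18 citric acid cycle genes, 2 rose and 6 fell, 4 rose and 3 fell, and none rose and 1 fell. Pdha1, a subunit of the pyruvate dehydrogenase that feeds the cycle, fell by 0.95 in Mga knockout (adjusted p = 0.00145) and by 1.06 in L3mbtl2 knockout (adjusted p = 0.00149). Of 8 mitochondrial carriers of nucleotides and phosphate, 1 rose and 4 fell, 1 rose and 4 fell, and 2 rose and 1 fell. Slc25a31, the ADP/ATP carrier of germ cells, was at 73.4, 89.2 and 97.3 FPKM in Mga knockout, 1.25 and 0.918 in L3mbtl2 knockout, 3.30 and 3.47 in Pcgf6 knockout, and 0.472, 0.510 and 0.671 in wild type, and all 7 knockout libraries lay above wild type. It rose by 7.06, 0.86 and 2.43 in Mga, L3mbtl2 and Pcgf6 knockout (adjusted p = 8.83e-08, 0.00762 and 0.000345; lost in L3mbtl2 knockout without its replicate 1).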

How the data were processed

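The authors deposited 1 value per gene for each of 10 RNA sequencing libraries, in tables without a header. The deposited values were read as FPKM because, times gene length, they fall on whole multiples of 1 step per library. Per the submitters' processing notes, Bowtie2 2.2.3, TopHat2 2.0.12 and HTSeq 0.6.0 were used with GRCm38, and the scaling of the FPKM is not stated in these sources. Per the labels' protocols, Trizol was used for RNA extraction and a NEBNext Ultra kit, which does not mark strand, for the libraries. Groups and replicate numbers came from the labels. Symbols came from GENCODE M21, which named 30250 of the 30460 genes. Reads were recovered from the steps of the FPKM values, within 0.005 of a whole read at the M21 exon length for 77.9% of genes above 0. They serve for depth, shares of reads and 1 alternative only. No molecular identifiers are mentioned, so reads may not be separate molecules.

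Differences were tested with limma 3.58.1 (R 4.3.3, eBayes with trend) on log2(FPKM + 0.1) for the 15731 genes that reached 0.5 FPKM in 2 or more libraries. All 10 libraries entered 1 fit of group, with Benjamini-Hochberg adjustment over all tested genes and a threshold of 0.05. Fold changes are on that log2 scale, which understates changes of low genes, and errors are limma's standard errors. Of the members 103 were tested, 12 mitochondrial and 91 nuclear, and mt-Nd4l, Ndufb2, Cox6a2 and Cox8b were not. The steps were tested on simulated data. Transcripts were matched to pseudogenes with BLAST+ 2.17.0+.

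The members and lists were chosen with earlier results of these data known. Named genes were drawn from all mitochondrial members, the highest and lowest nuclear gene of a complex, the isoforms, up to 6 rises and 6 falls per comparison with wild type (2 and 2 between knockouts), and up to 3 genes per list. The result of 1 member is not reported here. Members called in all 3 comparisons that this rule does not name, Cox6a1, Atp5a1, Atp5c1, Sdha, Ndufa7 and Cox7c were chosen after their values were seen. Alternatives were other pseudocounts, filters, scalings and samples, limma-voom on recovered reads, centring by chromosome, a replicate block and leaving out each library. Counts without the mt-Co2 to mt-Nd4l stretch or without chromosomes 1, 11 and 16 were added after seeing the data.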

Additional observations from a re-analysis of the deposited data

How the results depend on the processing

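Of the counts of called members and the differences between genomes, 256 values under the alternatives stayed close to the reported ones and 74 moved. A count stayed close if its ratio to the reported count was within a fixed limit. A difference stayed close if it moved by less than the pooled standard deviation of the libraries compared. Of the values of named genes, 2287 kept direction and call, 335 lost the call and 3 reversed. All 3 reversed with chromosome medians centred, which gave 0.0269 for Uqcr10 and -0.0099 for Ndufb3 in Mga knockout, and -0.33 for Sdhc in L3mbtl2 knockout. With only the 2 groups compared in the fit, nuclear calls were 22, 64 and 45 in Mga, L3mbtl2 and Pcgf6 knockout against wild type, 4 in Mga against L3mbtl2, 0 in Mga against Pcgf6 and 56 in L3mbtl2 against Pcgf6 knockout, and mitochondrial calls were 7 in Pcgf6 knockout against wild type and 0 in Mga against Pcgf6 knockout. With no filter, mitochondrial calls were 1 in Pcgf6 knockout against wild type, 1 in Mga against Pcgf6 and 2 in L3mbtl2 against Pcgf6 knockout, and nuclear calls were 7 in Mga against Pcgf6 knockout. limma-voom gave 9 nuclear calls in Pcgf6 knockout against wild type, and chromosome centring gave 17 in Mga against Pcgf6 knockout. Without the stretch from mt-Co2 to mt-Nd4l, where fewer genes are counted, mitochondrial calls were 5 in Mga and 5 in L3mbtl2 knockout against wild type, 1 in Mga against Pcgf6 and 2 in L3mbtl2 against Pcgf6 knockout. Apart from that stretch and the smaller fits, the cause was not tested.

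Leaving out each library in turn, mitochondrial calls ranged from 7 to 10, 2 to 10 and 0 to 6 in Mga, L3mbtl2 and Pcgf6 knockout against wild type, and from 0 to 3, 0 to 7 and 1 to 5 in Mga against L3mbtl2, Mga against Pcgf6 and L3mbtl2 against Pcgf6 knockout. Nuclear calls ranged from 23 to 59, 14 to 49 and 1 to 33, and from 5 to 44, 1 to 37 and 8 to 39, in the same order. The difference between genomes ranged from 0.46 to 0.83, 0.59 to 0.81 and 0.099 to 0.35. Where a group was left with 1 library, it was assumed to vary like the others.

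The replicate numbers did not pair the libraries, since deviations of same-numbered libraries correlated at -0.02 to 0.035. A replicate block left 7 nuclear calls in Mga against Pcgf6 knockout. With 2 or 3 libraries a group, and few reads from mt-Co2 to mt-Nd4l, small changes were not detectable at this depth.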
